A study of Mus musculus with 6 samples.

Results

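The genes described here are 55 members of the TGF-β and BMP signalling pathways: ligands, receptors, SMAD proteins, and the secreted, membrane and nuclear proteins that restrain or store the signal. They were chosen by gene symbol as members of the pathway, with earlier results of these data known. Each symbol was found once among the 22063 genes of the deposited table, so all 55 were located. RNA was sequenced from primary cardiac fibroblasts of *Tet3* f/f mice, which carry loxP sites in the gene for the DNA demethylase TET3. The 3 libraries named GFP received an adenovirus coding for green fluorescent protein (Ad-GFP). The 3 libraries named CRE received one coding for Cre recombinase (Ad-Cre), which excises the floxed segment. Both groups shared the floxed alleles, infection with an adenovirus and treatment with TGF-β, so no library shows these genes without TGF-β. Cre came from a virus in culture and not from a cell-type promoter, and the age of the mice is not given in the sources used here. The study calls its replicates biological without saying whether they were separate cultures or separate mice, so p-values measure the spread between these libraries at whichever level they were taken.

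TGF-β and BMP ligands are secreted dimers that bring together type I and type II receptor kinases at the cell surface. TGF-β and activin receptors phosphorylate SMAD2 and SMAD3, whereas BMP receptors phosphorylate SMAD1, SMAD5 and SMAD9, and either set joins SMAD4 and enters the nucleus. In cardiac fibroblasts TGF-β is the best known inducer of the myofibroblast state, and the response feeds back on its own pathway through inhibitory SMADs, SMURF ubiquitin ligases, SKI proteins and secreted antagonists.

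Total counts lay between 17002126 and 20343590 per library, and levels given as CPM are counts scaled to the effective size of the library. Whole-gene *Tet3* counts were 1044, 965 and 1000 in GFP and 642, 649 and 637 in CRE, so the libraries labelled CRE held less (log2 fold change -0.72, SE 0.082, adjusted p 5.36e-05, edgeR's quasi-likelihood test). The count covers the whole gene and not the floxed segment alone. Of the 14 cardiac fibroblast markers none was at 0, and 12 were lower in CRE, among them *Tcf21* (log2 fold change -1.80) and *Pdgfra* (-0.87). Of all tested genes 25.7% were lower. The summed level of the 14 markers was 55509.9 to 57214.8 CPM in GFP and 29695.9 to 32033.7 CPM in CRE. Of 15 endothelial markers 13 were lower in CRE, and *Kdr* and *Flt1* were not called. The 15 summed to 475 to 523 CPM in GFP and 240.4 to 273 CPM in CRE, with none at 0. Macrophage markers summed to 59.3 to 67.1 and 35.3 to 38.6 CPM with 3 of the 6 tested markers lower. Smooth muscle and pericyte markers summed to 176 to 198 and 145 to 165 CPM. Of these, 5 of 11 were lower, 1 was higher (*Cspg4*, log2 fold change 1.03) and *Higd1b* was at 0. Cardiomyocyte markers stayed at or below 3.65 CPM in sum, with 3 of 16 at 0 and 1 of the 2 tested higher. Epicardial and mesothelial markers stayed at or below 12.0 CPM, with 3 of 5 tested higher and 1 lower (*Wt1*, log2 fold change -2.10). In bulk samples fewer cells of a type and less RNA per cell cannot be told apart.

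Of the 55 genes, 52 passed the filter on low counts. In CRE 35 of them were lower, 7 were higher and 10 did not pass the test at an adjusted p of 0.05. These 42 calls are 80.8% of the tested members, where 51.2% of all 12862 tested genes were called. By direction, 67.3% of the tested members were lower against 25.7% of all tested genes, and 13.5% were higher against 25.5%. At a fold change of at least 1.5, 14 members (26.9%) were lower against 10.2% of all tested genes, and 1 member, *Nog*, was higher (1.92%) against 7.14%. On log2(FPKM + 1), where FPKM is the authors' level per gene length, 8 were at least 1.5-fold lower against 4.28% of all genes. The median log2 fold change of the tested members was -0.31 and that of all tested genes 0.0052. The members were counted after a filter that 50 of the 52 passed in both groups. *Nog* passed through the CRE libraries alone and *Acvr2b* through the GFP libraries alone. These counts rest on TMM scaling. With library size alone, which shifted the median of all genes to 0.17, 24 members were lower and 11 higher, where 16.2% and 43% of all genes were called. Relative to the median of all genes the members' median log2 fold change stood at -0.32 under TMM scaling, at -0.26 on log2(FPKM + 1) and at -0.30 on log2(FPKM + 0.1). In 34 of the 52 genes every CRE library lay below every GFP library, in 6 every CRE library lay above, and in 12 the groups overlapped, where 29.6% of all tested genes lay wholly below and 30% wholly above.

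**Figure D1:**
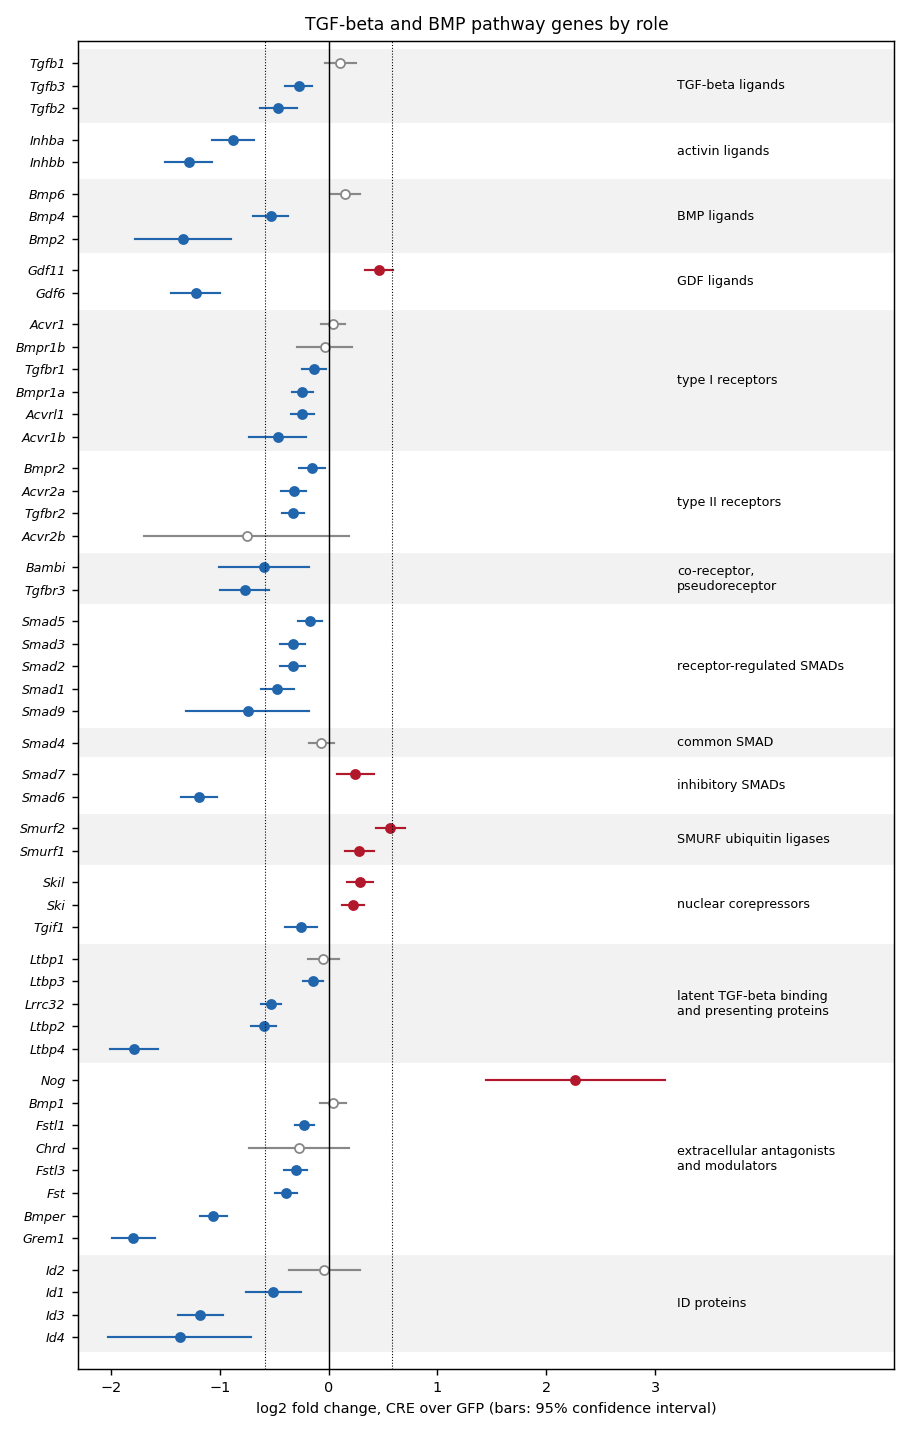
The log2 fold change of CRE over GFP is plotted for the 52 tested genes, grouped by role, with bars for the 95% confidence interval of the edgeR fit. Filled blue points are lower in CRE at an adjusted p of 0.05, filled red points higher and open points not called, and dotted lines mark a fold change of 1.5. Apart from *Nog*, the points beyond the dotted lines lie on the lower side, with *Grem1* and *Ltbp4* furthest.

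Called genes with the largest changes in each direction and a mean of at least 1 CPM are shown first by their promoters. The series concerns a DNA demethylase, and these windows hold CG dinucleotides. The sequences are from RefSeq on GRCm38.p6 and span 250 bases before to 50 bases after the annotated start. Windows were found for 38 of the 55 genes, and the first one listed for each gene was used. *Smurf2* (chr11:106920666-106920965, minus strand) and *Gdf11* (chr10:128891669-128891968, minus strand) were higher in CRE, and *Grem1* (chr2:113758599-113758898, minus strand) and *Ltbp4* (chr7:27337563-27337862, minus strand) were lower. *Smad6* (chr9:64022010-64022309, minus strand), also lower, was added after its sequence was seen. Capitals mark the motifs searched on both strands.
Smurf2: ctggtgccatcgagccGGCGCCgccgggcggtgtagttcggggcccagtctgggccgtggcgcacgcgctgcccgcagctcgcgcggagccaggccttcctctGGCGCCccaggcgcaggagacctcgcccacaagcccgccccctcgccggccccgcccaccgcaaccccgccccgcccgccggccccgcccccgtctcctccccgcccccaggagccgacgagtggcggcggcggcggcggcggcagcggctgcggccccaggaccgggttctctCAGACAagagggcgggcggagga
Gdf11: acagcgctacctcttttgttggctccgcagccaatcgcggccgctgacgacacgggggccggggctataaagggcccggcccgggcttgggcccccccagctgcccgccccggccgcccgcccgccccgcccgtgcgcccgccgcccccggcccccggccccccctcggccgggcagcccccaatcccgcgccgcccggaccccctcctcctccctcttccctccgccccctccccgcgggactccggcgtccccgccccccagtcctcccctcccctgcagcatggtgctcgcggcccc
Grem1: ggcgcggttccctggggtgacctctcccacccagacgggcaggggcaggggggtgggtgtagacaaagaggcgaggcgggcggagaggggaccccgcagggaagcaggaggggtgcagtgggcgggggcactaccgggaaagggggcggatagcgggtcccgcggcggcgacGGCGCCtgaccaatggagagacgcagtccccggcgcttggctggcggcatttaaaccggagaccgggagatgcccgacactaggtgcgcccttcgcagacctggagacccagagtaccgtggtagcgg
Ltbp4: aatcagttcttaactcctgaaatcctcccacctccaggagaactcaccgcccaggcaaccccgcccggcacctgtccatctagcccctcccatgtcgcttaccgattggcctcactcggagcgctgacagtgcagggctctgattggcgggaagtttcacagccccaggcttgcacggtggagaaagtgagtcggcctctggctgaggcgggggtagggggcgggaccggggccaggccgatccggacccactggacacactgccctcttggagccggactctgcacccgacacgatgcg
Smad6: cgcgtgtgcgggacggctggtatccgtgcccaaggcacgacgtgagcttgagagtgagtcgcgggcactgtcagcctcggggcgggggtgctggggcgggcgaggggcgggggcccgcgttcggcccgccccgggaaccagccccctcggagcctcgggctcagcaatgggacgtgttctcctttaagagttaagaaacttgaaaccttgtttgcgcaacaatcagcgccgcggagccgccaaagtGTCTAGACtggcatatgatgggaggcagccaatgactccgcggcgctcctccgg
The motifs were GGCGCC, a GC-rich element bound by BMP-activated SMADs, CAGACA, a SMAD-binding element, and GTCTAGAC, its palindromic form. None of them contains another. GGCGCC was present in 13 of the 38 promoters (34.2%), in 12.0% of all 27025 promoters and in 21.9% of the 10120 promoters of tested genes. It occurs at 2 positions in the *Smurf2* window and at 1 in the *Grem1* window, so it is present on either side of the comparison. CAGACA was present in 8 members (21.1%), *Smurf2* among them, close to the 21.0% of all promoters and above the 15.6% of tested genes. GTCTAGAC was present in *Smad6* alone among the 38 (2.63%), and in 0.211% of all promoters. The median number of CG dinucleotides per window was 27.5 for the members, 7 for all promoters and 21 for tested genes. It was 46 in the 4 higher members, 25 in the 25 lower members and 27 in the 8 that were not called. Medians by direction were not taken for all tested genes, so this split has nothing to be set against. The counts of CG were 43 in *Smurf2*, 36 in *Gdf11*, 28 in *Grem1*, 19 in *Ltbp4* and 31 in *Smad6*. These matches describe letters in the windows, and no binding or methylation was measured here.

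Among the TGF-β ligands, *Tgfb2* and *Tgfb3* were lower in CRE and *Tgfb1*, the isoform with the highest level per length in these cells, was not called. *Tgfb1* was at 146, 134 and 125 CPM in GFP and 154, 139 and 143 CPM in CRE, with a log2 fold change of 0.11 and an adjusted p of 0.175. Its groups overlapped, and without GFP replicate 1 the log2 fold change was 0.17 with an adjusted p of 0.0266. *Tgfb2* was at 46.7, 57.6 and 53.2 CPM in GFP and 36.9, 39.5 and 38.1 CPM in CRE (log2 fold change -0.46, SE 0.075, adjusted p 0.000565). *Tgfb3* was at 96.4, 92.4 and 93.0 CPM in GFP and 82.1, 79.5 and 71.2 CPM in CRE (log2 fold change -0.28, SE 0.057, adjusted p 0.00259). For both, every CRE library lay below every GFP library. On the FPKM scale, which divides by gene length and was computed by the authors, mean levels in GFP (± SD, n = 3 here and below) were 59.1 ± 4.89 for *Tgfb1*, 26.2 ± 0.575 for *Tgfb3* and 10.6 ± 1.16 for *Tgfb2*, and the ranges of the 3 genes did not meet. The sum of the 3 ligands was 90.9 to 100.5 FPKM in GFP and 101.2 to 108 FPKM in CRE, on a scale where the median log2 fold change of all tested genes was itself 0.13 with a pseudocount of 1 and 0.17 with one of 0.1. The *Tgfb3* call was lost with library size alone and on both of these FPKM scales (log2 fold change -0.11 with library size alone, adjusted p up to 0.149), and the *Tgfb2* call on log2(FPKM + 1) (adjusted p 0.0519). *Tgfb1* was called higher with library size alone (log2 fold change 0.27) and on both FPKM scales.

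Both activin subunits fell in CRE. *Inhba*, which codes for the subunit of activin A, was at 321, 381 and 303 CPM in GFP and 197, 182 and 168 CPM in CRE. Its CRE mean was 54.4% of the GFP mean (log2 fold change -0.88, SE 0.086, adjusted p 1.99e-05). *Inhbb*, the subunit of activin B, was at 36.9, 47.0 and 46.7 CPM in GFP and 16.98, 18.3 and 18.4 CPM in CRE, where the CRE mean was 41.1% of GFP (log2 fold change -1.29, SE 0.10, adjusted p 3.60e-06). In neither gene did the groups overlap.

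Of the BMP ligands, *Bmp2* and *Bmp4* were lower in CRE and *Bmp6* was not called. *Bmp2* was the scarcest of the 3, at 4.54, 3.66 and 4.10 CPM in GFP and 1.88, 1.38 and 1.58 CPM in CRE (log2 fold change -1.34, SE 0.20, adjusted p 0.000298), from at most 79 reads in a library. *Bmp4* had a log2 fold change of -0.53, SE 0.072 (adjusted p 0.000163). *Bmp6* had the highest level of the 3 per length, at 16.8 ± 0.680 FPKM in GFP, and a log2 fold change of 0.15 (adjusted p 0.0614). Its groups overlapped, and without CRE replicate 2 the log2 fold change was 0.21 with an adjusted p of 0.0156. *Bmp6* was also called higher with library size alone (log2 fold change 0.31), with upper-quartile scaling, on both FPKM scales and with a replicate block. *Bmp7* had no read in GFP and 0, 4 and 1 in CRE. *Gdf5* had 0, 2 and 4 reads in GFP and 2, 6 and 1 in CRE, and *Gdf10* 0, 0 and 2 against 1, 0 and 0. These 3 genes were too low to test, and a count of 0 allows a level of up to 0.156 to 0.187 CPM in these libraries, counting error only.

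The GDF ligands moved in opposite directions. *Gdf6*, a ligand of the BMP branch, was at 359, 291 and 334 CPM in GFP and 163, 124 and 136 CPM in CRE, so the CRE mean was 42.9% of GFP (log2 fold change -1.22, SE 0.10, adjusted p 7.04e-06). *Gdf11*, which signals through activin receptors, was at 32.1, 33.4 and 34.8 CPM in GFP and 43.8, 48.0 and 46.7 CPM in CRE (log2 fold change 0.46, SE 0.059, adjusted p 0.000117). All CRE libraries lay below GFP for *Gdf6* and above GFP for *Gdf11*. Per length, *Gdf6* had the highest GFP mean among the ligands tested here, 87.7 ± 9.19 FPKM, and in CRE its mean of 42.1 ± 5.80 FPKM lay below that of *Tgfb1*, 71.0 ± 3.13 FPKM.

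Called changes of the signalling receptors lay between log2 fold changes of -0.47 and -0.14. Of 6 type I receptors 4 were lower (66.7%) and of 4 type II receptors 3 were lower (75%), where 25.7% of all tested genes were lower. None of these called receptors fell by 1.5-fold. With library size alone *Tgfbr1* and *Bmpr2* came to log2 fold changes of 0.026 and 0.013, where the median of all genes was 0.17, and their signs were positive on the FPKM scale too. *Tgfbr1*, the type I TGF-β receptor, was at 124, 125 and 127 CPM in GFP and 119.9, 115 and 107 CPM in CRE (log2 fold change -0.14, SE 0.050, adjusted p 0.0417). That call was lost with DESeq2, with upper-quartile scaling and without GFP replicates 2 or 3 or CRE replicates 2 or 3, where the adjusted p reached 0.173. *Tgfbr2*, the type II receptor that binds TGF-β first, was at 433, 426 and 414 CPM in GFP and 334, 326 and 354 CPM in CRE (log2 fold change -0.33, SE 0.046, adjusted p 0.000206). It held its direction and its call in each setting tried. The activin receptors *Acvr1b* (log2 fold change -0.47) and *Acvr2a* (-0.32), the endothelial type I receptor *Acvrl1* (-0.24) and the BMP receptor *Bmpr1a* (-0.24) were lower, with adjusted p between 0.000416 and 0.00743. The calls of *Acvrl1* and *Bmpr1a* were lost with library size alone, and those of all 4 on both FPKM scales, where *Acvr1* was called higher, as it was with library size alone. *Bmpr2*, the main type II BMP receptor, was called lower at a log2 fold change of -0.15 (adjusted p 0.0391) although its groups overlapped, and lost the call with upper-quartile scaling and without GFP replicates 2 or 3 or CRE replicates 2 or 3 (adjusted p up to 0.146 with a library left out). *Acvr1* (0.040), *Bmpr1b* (-0.035) and *Acvr2b* (-0.75) were not called, the last at 17, 11 and 14 reads in GFP and 8, 13 and 5 in CRE.

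*Tgfbr3* codes for betaglycan, the co-receptor that presents TGF-β2 to the signalling receptors. It was at 144, 188 and 170.4 CPM in GFP and 85.3, 103 and 106 CPM in CRE (log2 fold change -0.77, SE 0.10, adjusted p 0.000139), and the groups did not overlap. *Bambi*, a pseudoreceptor without a kinase domain, was at 4.04, 6.31 and 5.92 CPM in GFP and 3.22, 3.77 and 3.85 CPM in CRE (log2 fold change -0.59, SE 0.19, adjusted p 0.0226). The *Bambi* call was lost with library size alone, on both FPKM scales and without GFP replicates 2 or 3 or CRE replicate 1 (adjusted p up to 0.0846 with a library left out).

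**Figure D2:**
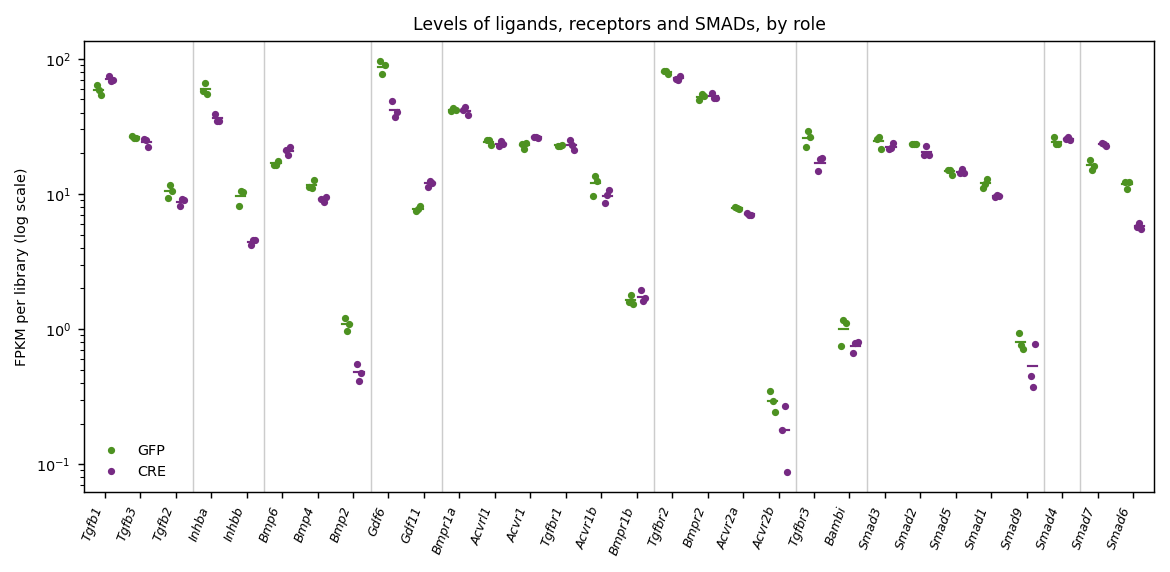
FPKM per library on a log scale is plotted for the tested ligands, receptors and SMADs, with GFP libraries in green, CRE libraries in purple, horizontal bars for group means and grey lines between roles. *Tgfbr2* has the highest GFP mean among the receptors (79.9 ± 2.79 FPKM), and the groups are clearly apart for *Inhba*, *Inhbb*, *Bmp2*, *Gdf6* and *Smad6*.

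All 5 receptor-regulated SMADs were lower in CRE under TMM scaling, where 25.7% of all tested genes were. The calls of *Smad5* and *Smad9* were lost with library size alone and on both FPKM scales, where *Smad5* came to a log2 fold change of -0.0039 on log2(FPKM + 1), and that of *Smad3* was lost on both FPKM scales (-0.12 on log2(FPKM + 1), adjusted p up to 0.240). *Smad1* and *Smad2* kept theirs under every scaling tried. *Smad2* was at 75.9, 71.6 and 71.0 CPM in GFP and 59.7, 55.9 and 58.0 CPM in CRE (log2 fold change -0.33, SE 0.050, adjusted p 0.000333). *Smad3* was at 108, 117 and 107 CPM in GFP and 83.3, 89.8 and 90.2 CPM in CRE (log2 fold change -0.33, SE 0.053, adjusted p 0.000509). Both SMADs of the TGF-β branch were thus near 79.5% of the GFP mean, with no overlap between groups.
In the BMP branch, *Smad1* was at 36.5, 38.8 and 42.7 CPM in GFP and 28.2, 28.6 and 28.6 CPM in CRE (log2 fold change -0.47, SE 0.068, adjusted p 0.000246). *Smad5* was at 106, 105 and 96.4 CPM in GFP and 89.7, 93.8 and 89.5 CPM in CRE (log2 fold change -0.17, SE 0.050, adjusted p 0.0167), and lost its call without GFP replicate 2, CRE replicate 1 or CRE replicate 3 (adjusted p up to 0.0598). *Smad9* was at 5.28, 4.34 and 4.05 CPM in GFP and 2.31, 1.88 and 3.91 CPM in CRE (log2 fold change -0.74, SE 0.25, adjusted p 0.0308). CRE replicate 3 stood close to the GFP libraries there, and the call was lost without GFP replicates 1 or 2 or CRE replicates 1 or 2 (adjusted p up to 0.104). *Smad4*, the common partner, was at 89.2, 80.9 and 80.6 CPM in GFP and 80.3, 81.2 and 77.9 CPM in CRE, with a log2 fold change of -0.066 and an adjusted p of 0.319. Its groups overlapped, and its sign turned positive with library size alone and on the FPKM scale.

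The inhibitory SMADs moved in opposite directions. *Smad6*, which mainly restrains BMP signalling and is itself a BMP target, was at 38.5, 34.3 and 38.6 CPM in GFP and 16.1, 17.2 and 15.5 CPM in CRE. The CRE mean was 43.8% of GFP (log2 fold change -1.19, SE 0.074, adjusted p 1.15e-06), and the call held in each setting tried. *Smad7*, which restrains both branches and is induced by TGF-β, was at 51.9, 44.4 and 46.9 CPM in GFP and 59.5, 59.3 and 51.1 CPM in CRE (log2 fold change 0.25, SE 0.076, adjusted p 0.0204). GFP replicate 1 overlapped with CRE replicate 3, and the call was lost without GFP replicates 2 or 3 or CRE replicates 1 or 2 (adjusted p up to 0.0727). The 8 SMADs together summed to 124 to 132 FPKM in GFP and 120.1 to 126 FPKM in CRE, ranges that overlap. As for the ligand sum, the median log2 fold change of all tested genes was itself 0.13 to 0.17 on this scale.

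Of the SMURF ubiquitin ligases both were higher in CRE, and of the 3 nuclear corepressors 2 were higher and 1 lower, where 25.5% and 25.7% of all tested genes were. *Smurf2* and *Smurf1* mark receptors and SMADs for degradation. *Smurf2* was at 189, 185 and 174 CPM in GFP and 293, 263 and 255 CPM in CRE (log2 fold change 0.57, SE 0.059, adjusted p 3.05e-05). *Smurf1* was at 147, 149.7 and 137 CPM in GFP and 191, 172 and 165 CPM in CRE (log2 fold change 0.28, SE 0.061, adjusted p 0.00304). Of the nuclear corepressors, *Skil* (log2 fold change 0.29, SE 0.053, adjusted p 0.00112) and *Ski* (0.23, SE 0.047, adjusted p 0.00256) rose, and *Tgif1* (-0.25, SE 0.066, adjusted p 0.00919) fell. Every CRE library lay above every GFP library for the 4 higher genes, and their direction and call held in each setting tried, while *Tgif1* lost its call with library size alone and on the FPKM scale.

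Most latent TGF-β binding and presenting proteins hold the ligand in the matrix or on the cell surface. Of the 5, 4 were lower in CRE (80%), against 25.7% of all tested genes. *Ltbp4*, which binds latent TGF-β and takes part in elastic fibre assembly, was at 61.1, 51.3 and 48.0 CPM in GFP and 16.3, 16.1 and 13.9 CPM in CRE (GRCm38 chr7:27305136-27337692, minus strand, ENSMUSG00000040488). Its CRE mean was 28.9% of GFP, a 3.46-fold decrease in the fit (log2 fold change -1.79, SE 0.10, adjusted p 6.29e-07). *Ltbp2*, a microfibril protein of the same family that does not bind latent TGF-β, was at 1942, 1779 and 1720.0 CPM in GFP and 1198, 1241 and 1165 CPM in CRE (log2 fold change -0.59, SE 0.052, adjusted p 9.22e-06). *Ltbp2* and *Lrrc32* dominated the group per length, at 268 ± 22.6 and 281 ± 8.49 FPKM in GFP. *Lrrc32*, which codes for the surface protein GARP, had a log2 fold change of -0.53, SE 0.043 (adjusted p 6.14e-06). *Ltbp3* was called at -0.15 (adjusted p 0.0131), lost the call without CRE replicate 1 (adjusted p 0.054), and its sign turned positive with library size alone and on the FPKM scale. *Ltbp1* was not called (-0.047, adjusted p 0.577), and it too turned under those scalings.

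Of the 8 secreted antagonists and modulators 5 were lower in CRE (62.5%), against 25.7% of all tested genes. *Grem1* and *Ltbp4* had the largest falls of all members and differed from each other by less than their standard errors. *Grem1*, the BMP antagonist gremlin 1, was at 29.5, 32.5 and 27.6 CPM in GFP and 8.92, 8.09 and 8.76 CPM in CRE (GRCm38 chr2:113746164-113758646, minus strand, ENSMUSG00000074934). The CRE mean was 28.8% of GFP, a 3.47-fold decrease in the fit (log2 fold change -1.79, SE 0.089, adjusted p 3.86e-07). *Bmper*, a secreted modulator of BMP activity, was at 172, 195 and 186 CPM in GFP and 86.3, 92.8 and 86.4 CPM in CRE (log2 fold change -1.06, SE 0.057, adjusted p 5.42e-07). In both genes the CRE libraries lay far below the GFP libraries relative to their spread.
*Nog*, the BMP antagonist noggin, had 4, 4 and 10 reads in GFP and 37, 25 and 30 in CRE, or 0.249, 0.225 and 0.520 and 1.99, 1.38 and 1.58 CPM (GRCm38 chr11:89300638-89302332, minus strand, ENSMUSG00000048616). Its log2 fold change was 2.27, SE 0.37 (adjusted p 0.000557). *Nog* was tested because its CRE libraries passed the filter, which no GFP library did, so its call depends on its level in the group where it was high. With no filter beyond 1 count it was called as well, and with at least 10 counts required in every library it was not tested. It was still a scarce transcript in CRE, at 1.03 ± 0.187 FPKM, against 2.19 ± 0.104 FPKM for *Grem1* in the same libraries. The activin-binding proteins *Fst* (log2 fold change -0.39) and *Fstl3* (-0.30) and the glycoprotein *Fstl1* (-0.22) were lower, with adjusted p between 7.38e-05 and 0.000734. The *Fstl1* call was lost with library size alone and on both FPKM scales. *Fstl1* was the most abundant of the 55 genes per length, at 983 ± 29.7 FPKM in GFP. *Fstl3* shares 1157 exon bases with *Prss57* on the opposite strand, and whether counting used the strand is not given in the sources used here. *Chrd* (-0.27) and *Bmp1* (0.040), the protease that cleaves chordin and procollagens, were not called. *Bmp1* was called higher with library size alone (log2 fold change 0.20) and on both FPKM scales.

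ID proteins are helix-loop-helix factors without a DNA-binding domain, and their genes are classic BMP targets. *Id3* was at 89.2, 109.6 and 114 CPM in GFP and 43.3, 44.1 and 50.8 CPM in CRE (log2 fold change -1.18, SE 0.093, adjusted p 5.41e-06). *Id4* was at 2.24, 1.69 and 2.49 CPM in GFP and 0.913, 0.554 and 1.003 CPM in CRE (log2 fold change -1.37, SE 0.29, adjusted p 0.00312), from at most 48 reads in a library. *Id1* had a log2 fold change of -0.51, SE 0.11 (adjusted p 0.00373). In these 3 genes no CRE library reached the lowest GFP library. *Id2* was not called (-0.040, adjusted p 0.843), and its sign turned with library size alone and on the FPKM scale. Per length *Id3* led the family, with 77.0 ± 9.79 FPKM in GFP and 38.1 ± 3.46 FPKM in CRE.

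**Figure D3:**
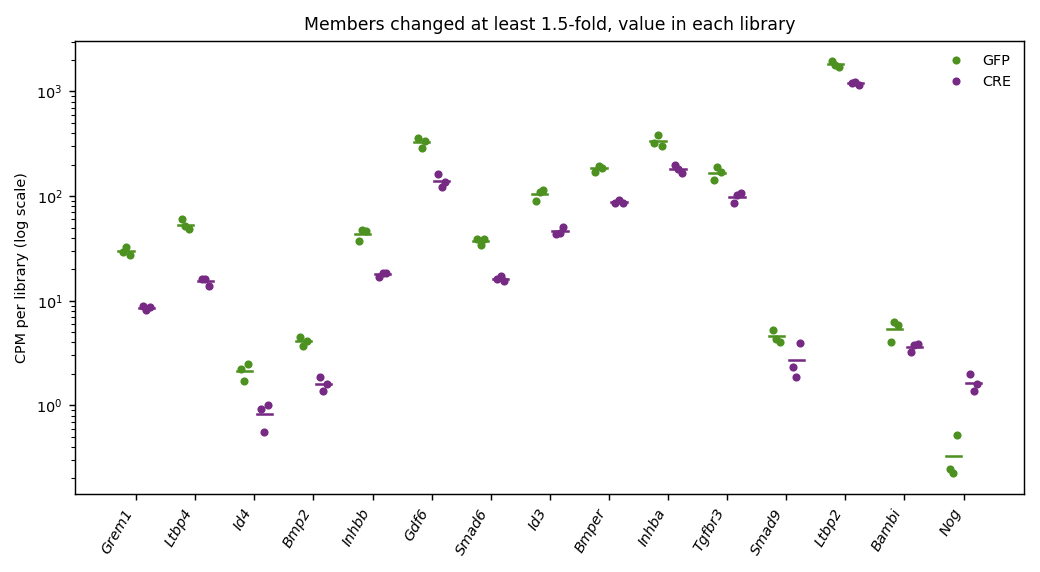
CPM in each library on a log scale is plotted for the 15 genes called with a fold change of at least 1.5, ordered by log2 fold change, with GFP in green, CRE in purple and horizontal bars for group means. No CRE point reaches a GFP point within a gene, and *Smad9* and *Bambi* come closest.

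*Id1*, *Id3*, *Smad6*, *Bmper* and *Acvrl1* are also abundant in endothelial cells. As given above, 13 of 15 endothelial markers were lower in CRE, for example *Cdh5* (log2 fold change -0.82) and *Pecam1* (-0.89). *Kdr* (-0.42) and *Flt1* (0.057) were not called. The summed level of the endothelial markers in CRE was 240.4 to 273 CPM against 475 to 523 CPM in GFP. The part of these cells in the fall of the pathway genes was not tested. The fibroblast marker sum was lower as well, but 90.7% of it in GFP came from *Col1a1*, *Col1a2*, *Col3a1* and *Fn1*, which also stand in the list of TGF-β response genes. Of the other 10 markers 8 were lower and *Thy1* and *Dpt* were not called, and their sum was 5099 to 5383 CPM in GFP and 3436 to 3657 CPM in CRE. The part of fibroblast content in the result was not tested either.

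Other genes of the pathway were taken as a further list. Of 87 listed genes 58 were tested, of which 20 (34.5%) were higher and 17 (29.3%) lower, where 25.5% and 25.7% of all tested genes were, with a median log2 fold change of -0.0065. The 29 others had at most 18 reads in a library. Above a mean level of 1 CPM, large changes included a rise of *Gdf15*, a stress-induced ligand, and falls of *Itgb8*, *Mecom* and *Lefty1*. *Gdf15* was at 2.36, 2.93 and 1.92 CPM in GFP and 10.5, 8.92 and 9.24 CPM in CRE (log2 fold change 1.99). *Itgb8*, an integrin subunit that takes part in activating latent TGF-β, was at 23.8, 33.9 and 30.1 CPM in GFP and 7.74, 8.20 and 10.7 CPM in CRE (log2 fold change -1.72). The transcription factor *Mecom* had a log2 fold change of -1.10 and the nodal inhibitor *Lefty1* one of -0.82. Adjusted p for these genes lay between 1.77e-06 and 0.00299.

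Genes known to respond to TGF-β formed another list, and all 32 were tested. In CRE 19 (59.4%) were lower, against 25.7% of all tested genes, and 9 (28.1%) were higher, against 25.5%. At a fold change of at least 1.5, 13 (40.6%) were lower against 10.2% of all tested genes, and 5 (15.6%) higher against 7.14%. Their median log2 fold change was -0.32. Large changes by absolute value included those of *Il11*, *Postn*, *Cnn1* and *Acta2*. *Postn*, the matrix protein periostin, was at 2015, 2077 and 1933 CPM in GFP and 585, 563 and 599 CPM in CRE (log2 fold change -1.79). *Acta2*, smooth muscle actin, was at 1398, 1194 and 1288 CPM in GFP and 535, 459 and 525 CPM in CRE (log2 fold change -1.35), and *Cnn1*, the contractile protein calponin, had a log2 fold change of -1.56. These contractile and matrix genes fell. *Il11*, a cytokine of activated fibroblasts, rose and was at 6.34, 10.1 and 7.22 CPM in GFP and 41.0, 51.9 and 31.5 CPM in CRE (log2 fold change 2.39). Adjusted p for these genes lay between 1.33e-08 and 7.61e-06. *Klf10*, *Junb* and *Ccn2*, named after their values were seen, also rose (log2 fold changes 1.18, 1.05 and 0.95). *Col1a1*, *Col1a2*, *Col3a1* and *Fn1* stand in this list and among the fibroblast markers, and all of them fell.

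Of 17 BMP response genes outside the 55, 13 were tested. Of these 2 (15.4%) were lower, 2 (15.4%) higher and 9 not called, below the 25.7% and 25.5% of all tested genes, with a median log2 fold change of -0.057. *Atoh8*, a helix-loop-helix transcription factor, was at 50.7, 59.2 and 63.2 CPM in GFP and 14.5, 17.6 and 16.6 CPM in CRE (log2 fold change -1.83, adjusted p 5.08e-07). *Vsir*, which codes for an immune checkpoint receptor, had a log2 fold change of -1.41 (adjusted p 1.13e-06). The 2 rises were small, 0.31 for the transcription factor *Gata2* and 0.25 for the BMP antagonist *Nbl1*. The *Gata2* call was lost with DESeq2, on both FPKM scales, with a replicate block and without GFP replicates 1 or 3 or CRE replicates 1 or 3 (adjusted p up to 0.127), and the *Nbl1* call held in each setting tried.

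**Figure D4:**
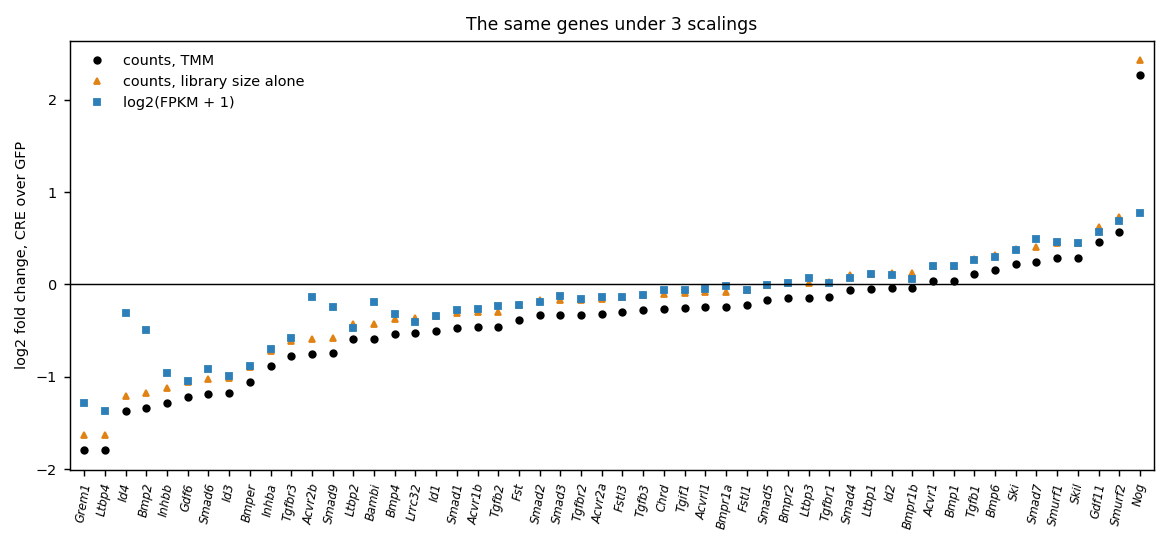
The log2 fold change of CRE over GFP is plotted for the 52 tested genes, ordered by the TMM value, under TMM scaling of the counts (black circles), library size alone (orange triangles) and log2(FPKM + 1) (blue squares). The other scalings lie above TMM for nearly every gene, *Bmpr2*, *Ltbp3*, *Tgfbr1*, *Smad4*, *Ltbp1*, *Id2* and *Bmpr1b* cross 0, and the far left of the order stays below 0.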

How the data were processed

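RNA-seq was performed on 3 GFP and 3 CRE libraries, grouped by sample title. The methods of the study name Trimmomatic for trimming, HISAT2 for alignment to GRCm38, HTSeq-count for counting by gene and Cufflinks for FPKM. Versions and the strand setting are not given in the sources used here. Labels and methods name different extraction and library kits. Unnormalized read counts were deposited for each gene in each library, with the authors' FPKM values in the same table. Their own group means, log2 ratio, p-value and false discovery rate were not used.

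The count test was edgeR 4.0.16 in R 4.3.3, two-sided and quasi-likelihood, for CRE over GFP. The filter filterByExpr (minimum count 10, minimum total 15) left 12862 genes, over which p was adjusted by the Benjamini-Hochberg method. TMM factors set the effective library sizes behind CPM. An exact permutation test of 3 against 3 libraries cannot give a p below 0.1 and was not used for calls. The procedure was tested on simulated data. Total counts per library lay between 17002126 and 20343590, and limits from a count of 0 cover counting error only. Confidence intervals are those of the edgeR fit and include the spread between libraries. Coordinates are from GENCODE M21. Of the 55 genes, 17 share exon bases with another gene.

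The 55 genes and all lists were chosen with earlier results of these data known. Values in every library are given for TGF-β ligands and receptors, SMADs and members with at least 1.5-fold change, and a few were added. From the other lists the 5 largest called changes with a mean of at least 1 CPM are named, apart from some that are not reported here. Alternatives were RLE size factors, library size alone, upper-quartile scaling, other filters, DESeq2 1.42.0, limma 3.58.1 (voom, and log2(FPKM + 1) or log2(FPKM + 0.1)), a block for the replicate number, an adjusted p of 0.01 and each library left out in turn. Same-numbered libraries correlated at 0.046, 0.18 and -0.018 in their deviations from group means, so numbers were not used as pairs. Figures were drawn with matplotlib 3.10.9.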

Additional observations from a re-analysis of the deposited data

How the results depend on the processing

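Of the 42 called genes, 26 kept their call and direction in each of up to 16 settings, and 6 of the 10 others were called in none. An adjusted p of 0.01 was not among these settings. At that threshold *Tgfbr1*, *Bmpr2*, *Bambi*, *Smad5*, *Smad9*, *Ltbp3* and *Smad7* lost their calls. Higher members numbered 11 with library size alone, 11 on log2(FPKM + 1) and 11 on log2(FPKM + 0.1), where 43%, 38.7% and 38.8% of all genes were higher. Lower members numbered 24, 20 and 21, where 16.2%, 14.9% and 14.8% of all genes were lower. The FPKM settings change unit, pseudocount and test together. The count at least 1.5-fold higher was 3 with library size alone (12.6% of all genes), 2 with upper-quartile scaling (7.63%), 0 with at least 10 counts in every library, which drops *Nog* (6.24%), 2 and 3 on the FPKM scales (6.6% and 11.8%), and 1 to 2 with single libraries left out (2 without GFP replicate 1, CRE replicate 2 or CRE replicate 3). The count at least 1.5-fold lower was 8 on log2(FPKM + 1) (4.28% of all genes), and the cause was not tested. Of the 58 other pathway genes tested, 8 were lower with library size alone, where 16.2% of all genes were. On either FPKM scale 9 were lower, where 14.9% and 14.8% of all genes were. BMP response genes higher numbered 1 with DESeq2, where 18.1% of all genes were higher. With libraries left out they numbered 1 to 2 (1 without GFP replicate 3, CRE replicate 1 or CRE replicate 3). Of all genes 21% to 24.6% were higher there. The replicate block gave 8 higher and 35 lower members, *Bmp6* being added, and GFP replicate 1 correlated best with CRE replicate 3.

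Signs reversed with library size alone, log2(FPKM + 1) and log2(FPKM + 0.1), in that order, for *Bmpr1b* (0.13, 0.058, 0.088), *Bmpr2* (0.013, 0.013, 0.013), *Id2* (0.12, 0.10, 0.12), *Ltbp1* (0.12, 0.11, 0.11), *Ltbp3* (0.016, 0.067, 0.068), *Smad4* (0.097, 0.071, 0.074) and *Tgfbr1* (0.026, 0.015, 0.015). The median of all genes stood at 0.17, 0.13 and 0.17 there. With single libraries left out, values ran from -0.0040 to 0.082 for *Bmp1*, -0.12 to 0.013 for *Bmpr1b*, -0.11 to 0.069 for *Id2* and -0.096 to 0.019 for *Ltbp1*. The cause was not tested. *Bmp7*, *Gdf5*, *Gdf10*, *Acvr2b* and *Nog* are limited by depth, at no more than 37 reads in a library.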

Other observations

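Among the 29 other pathway genes too low to test, 5 had groups that did not overlap. How often this occurs among all genes too low to test was not counted, so their reads are given as a description only. *Bmp5* had 18, 10 and 10 reads in GFP and 4, 1 and 3 in CRE, or a mean of 0.734 ± 0.334 CPM in GFP and 0.143 ± 0.0809 CPM in CRE (SD, n = 3). The other 4 lay higher in CRE, each at no more than 3 reads in a library. *Gdf7* had 1, 2 and 1 reads in CRE, *Bmp8b* 1, 1 and 3 and *Inhbc* 2, 2 and 2, each with no read in GFP, and *Amhr2* had 1, 0 and 1 in GFP and 2, 3 and 2 in CRE. These genes were named after their values were seen.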
